A study of Homo sapiens with 8 samples.

Results

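The transcripts described here are those of the tRNA, rRNA and other RNA methyltransferase families. They were taken as every gene of the normalized counts table whose GENCODE symbol begins with METTL, TRMT, TRMO, NSUN, FTSJ, MRM, TRDMT, TFB1M, TFB2M, BUD23, EMG1, DIMT1, RNMT, CMTR, TGS1 or ALKBH8, or is FBL. Pseudogenes and the mRNA N6-adenosine methyltransferases METTL3, METTL14 and METTL16 were left out. This gave 64 of the 19118 genes of that table, of which 62 are protein coding and 2 are lncRNA genes (METTL14-DT and TRMT61A-DT). Within that table the symbol chose the members, and no comparison between the groups did. Another 3 genes with such symbols were under the table's minimum, with at most 5 counts in any library for NSUN7, 3 for TRMT2B-AS1 and 2 for METTL21C, and no comparison was made for them.

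RNA methyltransferases take the methyl group from S-adenosylmethionine (SAM) and release S-adenosylhomocysteine. Methyl groups on tRNA lie on the anticodon loop, where they act on decoding, and on the body of the molecule, where they act on folding and stability, while those on rRNA are added as ribosomes are assembled. Mitochondria have a set of nuclear-encoded enzymes of their own for the tRNAs and rRNAs made from mitochondrial DNA. The names METTL and TRMT follow sequence families rather than substrates, so 8 of the 62 coding members are known to methylate proteins or thiols, and the substrates of 5 are not named here.

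RNAseq was carried out on HEK293T cells, a line from human embryonic kidney with the large T antigen of SV40. In the DZNep group, 4 libraries came from cells given 100 µM DZNep (3-deazaneplanocin A, an inhibitor of the S-adenosylhomocysteine hydrolase AHCY) for 48 h, and in the Control group 4 libraries came from cells given vehicle for the same time. Both groups were otherwise the same line without a genetic change, and the labels name DMEM as the medium where the methods name RPMI. RNA extracted from the cells was sequenced, and the library type is not given in the sources used here. Values are normalized counts, the number of reads on a gene divided by 1 size factor per library, unless another scale is named.

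The libraries held between 25043058 (Control replicate 1) and 44902779 counts. Mitochondrial transcripts took 3.02% and 3.16% of the counts in Control replicates 2 and 3, 7.76% and 13.7% in Control replicates 1 and 4, and from 4.25% to 10.1% in the DZNep libraries. Vimentin (VIM) was at 380 to 513 TPM (reads per base of exon, scaled to the same sum in every library) and the kidney factor PAX2 at 2.95 to 5.17. The other HEK293 markers NEFM, KRT18 and KRT8 were at 68.55 to 142.7, 53.3 to 126.8 and 3.34 to 29.5. The blood markers PTPRC and CD3E and the liver marker ALB were at or under 1.02. The endothelial marker PECAM1 was at 0.598 to 2.06 and the fibroblast collagen COL1A1 at 20.3 to 49.9. AHCY was at 8889 ± 429 (SD, n = 4) in Control and 7336 ± 1188 in DZNep (edgeR adjusted p = 0.142, and 0.0443 in a fit that blocks on the replicate number). In such bulk libraries, fewer cells of a type and less RNA per cell cannot be told apart.

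The transcripts of the family differed between DZNep and Control in both directions. At an adjusted p under 0.05 in edgeR's quasi-likelihood test, 18 of the 62 coding members were lower and 6 were higher in DZNep than in Control, and 38 were not called. This is 29.0% lower and 9.68% higher, where 21.8% and 19.1% of the 19171 genes tested were lower and higher. With an absolute log2 fold change over 1 as well, 8 members were lower and 1 was higher, where the background was 13.5% lower and 10.6% higher. The 4 DZNep libraries all lay under the 4 Control libraries for 17 members and all lay over them for 8 (19.4% and 19.5% of all genes tested). The median log2 fold change of the members was -0.01, and that of all genes was -0.03. In the fit blocked on the replicate number, 26 members were lower and 16 higher (30.2% and 28.8% of all genes), so the count of higher members moved by more than 1.5 times while 8 lower and 1 higher passed both thresholds as before (14.3% and 11.7% of all genes).

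**Figure D1:**
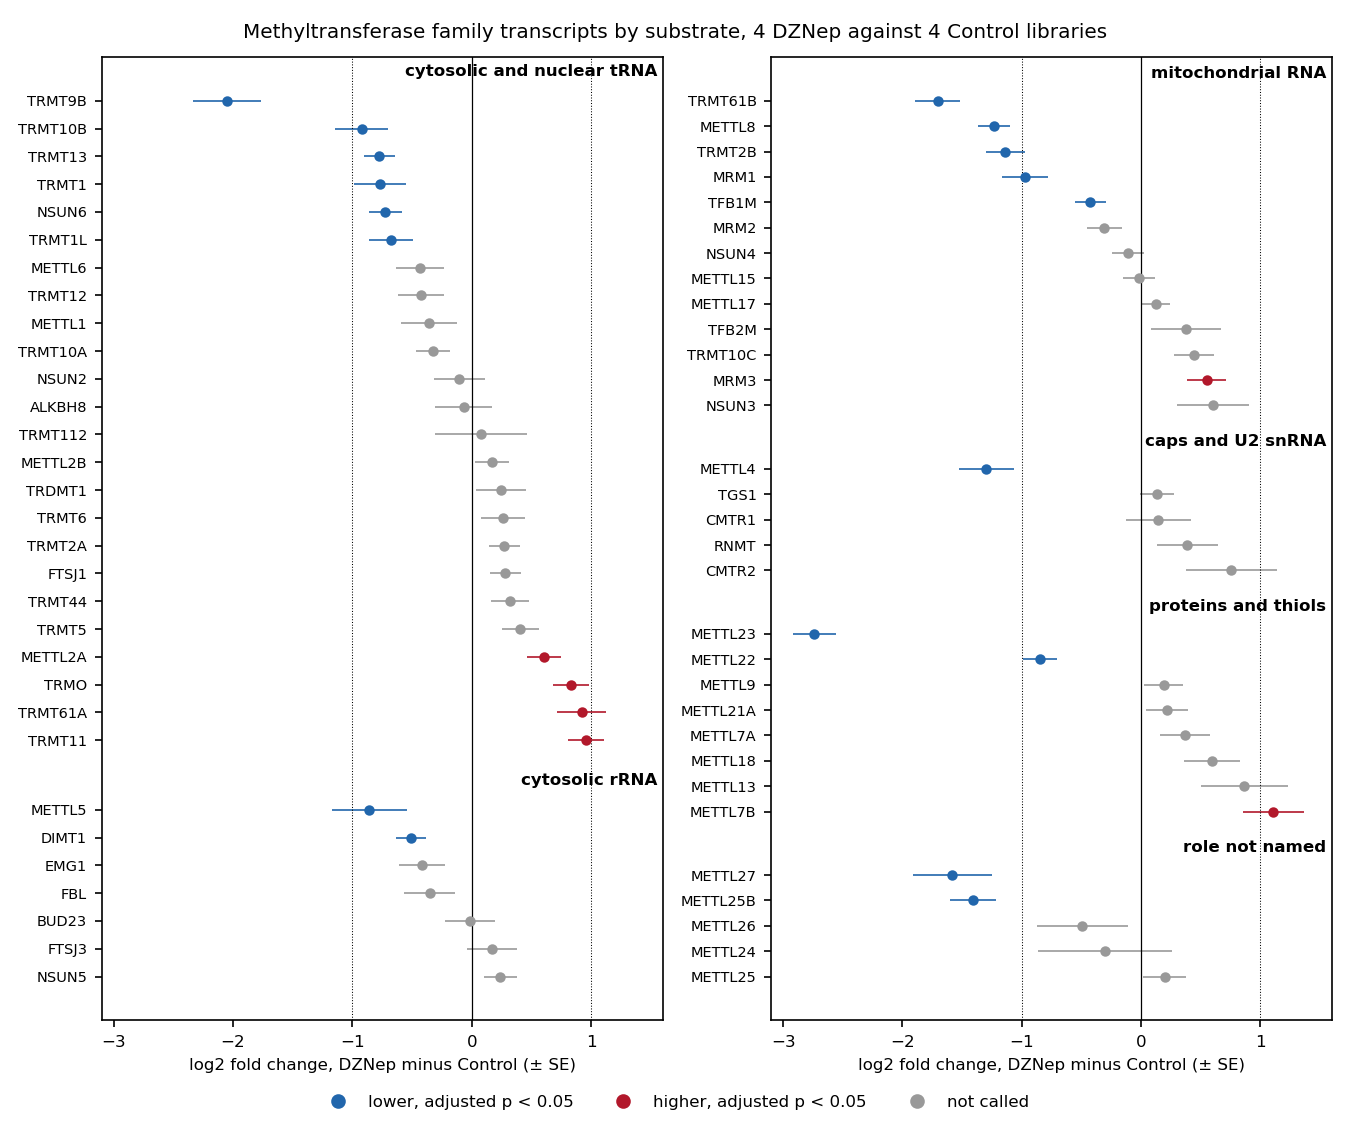
The log2 fold change (DZNep minus Control, x axis) of each of the 62 protein coding members, with an SE derived from edgeR's F statistic, is shown by substrate. Blue points are the 18 members lower and red points the 6 higher at an adjusted p under 0.05, grey points are not called, and dotted lines mark a log2 fold change of -1 and 1. Lower members reach -2.74 (METTL23), and the highest member is METTL7B at 1.11.

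Of the 24 members that act on cytosolic and nuclear tRNA, 6 were lower and 4 higher (25% and 16.7%, near the 21.8% and 19.1% of all genes), with a median log2 fold change of 0.01. TRMT9B, a paralog of the methyltransferase domain of ALKBH8, had the lowest fold change of this group. It was at 140.3, 196, 197 and 143 in Control replicates 1 to 4 and at 42.6, 48.3, 51.8 and 22.5 in DZNep replicates 1 to 4. Every DZNep library was under every Control library, and TRMT9B fell by 2.05 on the log2 scale (SE 0.28, edgeR adjusted p = 0.000334). It was a scarce transcript, at 1.04 ± 0.457 TPM in Control. ALKBH8 itself, which adds the methyl ester of the wobble uridine, was at 1073 ± 319 in Control and 1041 ± 201 in DZNep (adjusted p = 0.843).

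The other lower members of the tRNA group fell by less than 1 on the log2 scale. TRMT10B, a paralog of the position 9 guanosine methyltransferase TRMT10A, was at 889.5, 413, 613 and 742 in Control and 341, 389, 341 and 355 in DZNep. The DZNep libraries were close together and the Control libraries spread over 2.15-fold, with Control replicate 2 near the DZNep level (log2 fold change -0.92 ± 0.22 SE, adjusted p = 0.0072). TRMT13, which methylates the ribose in the acceptor stem, was at 1209, 1089, 1133 and 1227 in Control and 650.3, 775, 685 and 667 in DZNep, with both groups tight and far apart (-0.77 ± 0.13, adjusted p = 0.000962). NSUN6, which makes 5-methylcytosine near the 3′ end of tRNAs, fell by 0.73 (adjusted p = 0.0022). TRMT1, which makes dimethylguanosine in tRNAs, was at 3199, 1869, 2039.7 and 3065 in Control and 1432, 1632, 1167 and 1863 in DZNep. Control replicates 1 and 4, with the higher mitochondrial shares, were above Control replicates 2 and 3, DZNep replicate 4 was just under Control replicate 2, and the part of these shares in the result was not tested. TRMT1 fell by 0.77 (adjusted p = 0.0178), and its paralog TRMT1L fell by 0.68 (adjusted p = 0.0141). The call for TRMT1 was lost without Control replicate 1 (adjusted p = 0.0517), DZNep replicate 1 (0.0586) or DZNep replicate 3 (0.0567), and that for TRMT1L without DZNep replicate 1 (0.0542). As a limit on these values, 21.0% of the exonic bases of TRMT10B and 13.1% of those of TRMT13 lie over exons on the other strand (of EXOSC3 and a gene with no row among the counts for TRMT10B, of LRRC39 for TRMT13), and the strand setting of the counts is not given in the sources used here. EXOSC3 had a log2 fold change of -0.40 ± 0.21 (adjusted p = 0.163, 0.0211 with the replicate block) and LRRC39 of -0.85 ± 0.24 (0.0153).

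The 4 higher members of the tRNA group were TRMT11, TRMT61A, TRMO and METTL2A. TRMT11, the catalytic partner of TRMT112 for 2-methylguanosine in the D arm, was at 589, 622, 675 and 823 in Control and 1349, 1421, 1245 and 1353 in DZNep. All DZNep libraries lay between 1245 and 1421 and all Control libraries at or under 823, and the log2 fold change was 0.96 ± 0.15 (SE, adjusted p = 0.000616). TRMO, which adds the N6-methyl group of threonylcarbamoyladenosine beside the anticodon, was at 307, 280.3, 293 and 266 in Control and 475, 614, 452 and 540.0 in DZNep. Its Control libraries differed by 1.15-fold at most, and each DZNep library was higher (0.83 ± 0.15, adjusted p = 0.00162). TRMT61A, the catalytic subunit for 1-methyladenosine in the T loop, was at 959, 616, 720.2 and 798 in Control and 1394, 1684, 1058 and 1830.4 in DZNep. Here DZNep replicates 2 and 4 were above DZNep replicates 1 and 3, and the groups did not overlap (0.92 ± 0.20, adjusted p = 0.00485). TRMT6, the non-catalytic partner of TRMT61A, was at 1304 ± 214 in Control and 1594 ± 319 in DZNep (SD, n = 4, adjusted p = 0.287).

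METTL2A and METTL2B are near copies of each other on different chromosomes, and both make 3-methylcytidine in the tRNA anticodon loop. METTL2A (GRCh38 chr17:62423875-62453385, + strand) was at 1617, 1426, 1734 and 1823 in Control and 2540.3, 2531, 2240.4 and 2938 in DZNep. Every DZNep library was above every Control library, with a log2 fold change of 0.61 ± 0.14 (SE, adjusted p = 0.00683). METTL2B (chr7:128476729-128506602, + strand) was at 2305, 2179, 2196 and 2687 in Control and 2414, 2958, 2439.9 and 2954 in DZNep. Its groups overlapped, with a log2 fold change of 0.17 ± 0.14 (adjusted p = 0.358), and the difference between the fold changes of the pair was not tested. The canonical transcripts were 96.1% identical over 5861 aligned positions, and 10.4% of the 100-base runs of METTL2A and 10.3% of those of METTL2B occur elsewhere among the transcripts, so reads that fit both copies were left out of unique counts.

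The 250 bases before the RefSeq start (assembly GRCh38.p14) of METTL2A (chr17:62423647-62423896, + strand) and METTL2B (chr7:128476498-128476747, + strand) are shown because they too are alike, though less so than the transcripts, with 228 identical bases in an alignment of 262 (87.0%). Capitals mark the GC-box (GGGCGG) and the E2F motif (TTTGGCGC or TTTCCCGC), searched on both strands. In both windows 1 GC-box stands apart, and the other overlaps the E2F motif as 1 run.
METTL2A: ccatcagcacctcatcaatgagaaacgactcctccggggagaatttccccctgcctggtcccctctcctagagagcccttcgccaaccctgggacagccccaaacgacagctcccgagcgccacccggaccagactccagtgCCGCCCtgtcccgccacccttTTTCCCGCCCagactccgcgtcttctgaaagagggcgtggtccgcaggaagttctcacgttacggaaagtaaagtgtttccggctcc
METTL2B: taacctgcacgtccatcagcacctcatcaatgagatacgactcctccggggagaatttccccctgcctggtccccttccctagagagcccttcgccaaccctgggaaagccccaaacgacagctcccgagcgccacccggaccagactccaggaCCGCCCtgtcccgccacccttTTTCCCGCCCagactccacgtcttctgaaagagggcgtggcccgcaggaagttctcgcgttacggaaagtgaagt
Both windows hold the same motifs, 2 GC-boxes and 1 E2F motif, with METTL2A called higher and METTL2B not called. A GC-box was in 42.6% and an E2F motif in 1.93% of the 35116 RefSeq promoter windows of this length.

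The other members of the tRNA group were not called. METTL6, which makes 3-methylcytidine in serine tRNAs, was at 1088 ± 297 in Control and 820.3 ± 70.2 in DZNep (adjusted p = 0.111), and NSUN2, the main 5-methylcytosine enzyme of tRNAs, was at 4097 ± 1053 and 3884 ± 840.2 (adjusted p = 0.73). FTSJ1, which methylates the ribose in the anticodon loop, and TRMT2A, which makes 5-methyluridine in the T loop, were higher in all 4 DZNep libraries than in any Control library. Their log2 fold changes were 0.28 and 0.27 (adjusted p = 0.0982 and 0.116). With the replicate block, TRMT5 (adjusted p = 0.00472) and TRMT2A (0.0422, and 0.0333 in DESeq2) were called higher, and METTL6 (0.0223), TRMT12 (0.0142), METTL1 (0.0422) and TRMT10A (0.0442) were called lower.

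**Figure D2:**
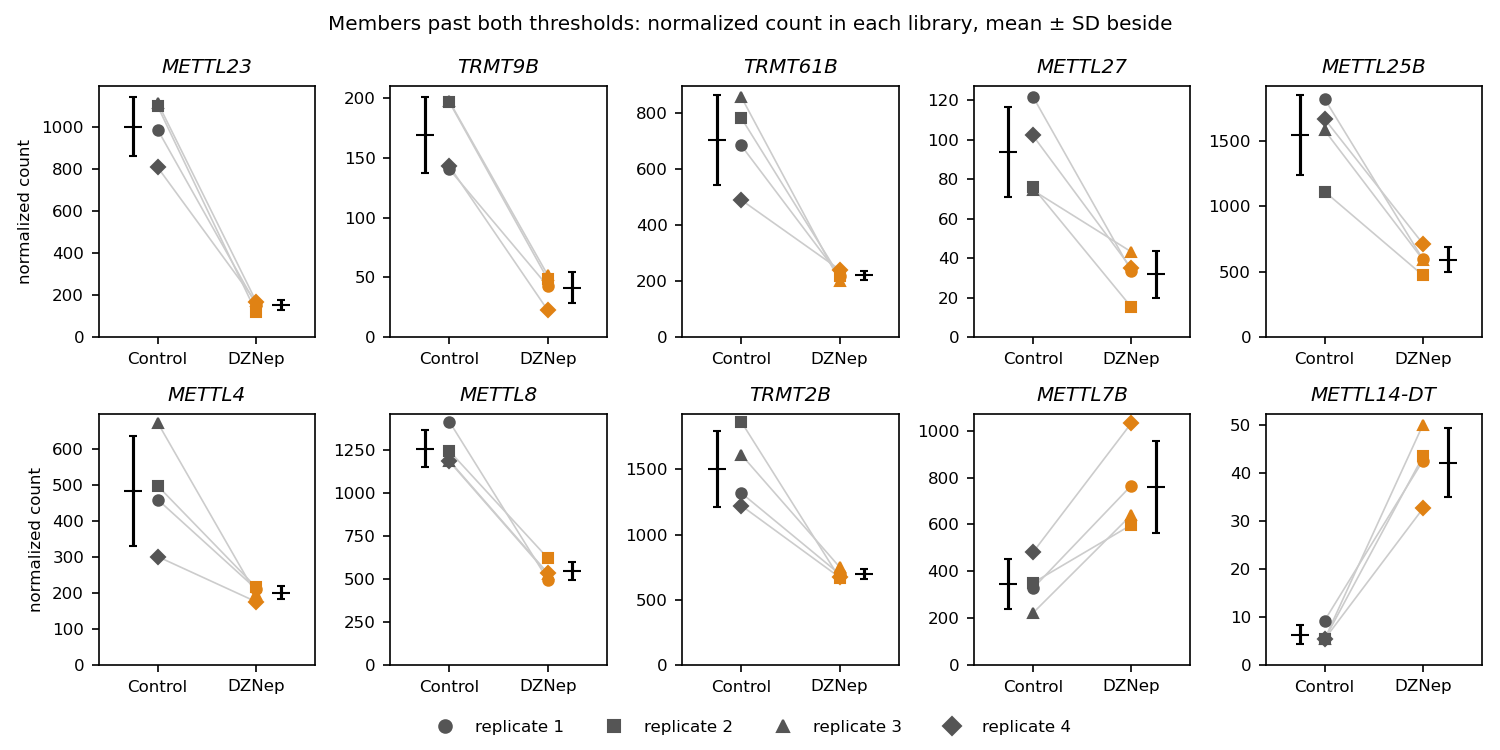
The normalized count (y axis, linear from 0) of each member past both thresholds is shown in each Control (grey) and DZNep (orange) library, with lines joining libraries of the same replicate number and bars for the mean ± SD (n = 4). In all 10 panels the groups do not overlap, and METTL7B and METTL14-DT are the 2 members that are higher in DZNep.

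Among the 13 members that act in mitochondria, 5 were lower and 1 higher (38.5% and 7.69%, against 21.8% and 19.1% of all genes), with a median log2 fold change of -0.11. TRMT61B, which makes 1-methyladenosine in mitochondrial tRNA and rRNA (GRCh38 chr2:28849821-28870309, - strand), was at 686, 785, 860.0 and 491 in Control and 219, 219, 202 and 242 in DZNep. The DZNep libraries lay within 202 to 242, under the lowest Control library, and TRMT61B fell by 1.70 on the log2 scale (SE 0.19, adjusted p = 0.000104), a 3.2-fold lower mean. TRMT61A, the enzyme of the same modification on cytosolic tRNA, was called in the other direction. METTL8, which makes 3-methylcytidine in mitochondrial tRNAs, was at 1417, 1245, 1185 and 1189 in Control and 497, 623, 529 and 534 in DZNep. It fell in each of the 4 replicate pairs by at least 1 on the log2 scale (-1.23 ± 0.14, adjusted p = 0.000103). TRMT2B, which makes 5-methyluridine in mitochondrial RNAs, was at 1319.6, 1866, 1613 and 1223 in Control and 697, 668, 751 and 672 in DZNep. Its DZNep libraries differed by little and its Control libraries by 1.53-fold, with no overlap (-1.14 ± 0.16, adjusted p = 0.000393).

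The enzymes of mitochondrial rRNA held calls in both directions. MRM1, 1 of 3 ribose methyltransferases of the large mitochondrial rRNA, was at 481, 337, 339 and 374 in Control and 185, 202, 158 and 247 in DZNep, lower in every library (-0.98 ± 0.19, adjusted p = 0.00261). MRM2 was at 2651 ± 245 in Control and 2184 ± 323 in DZNep (adjusted p = 0.125, 0.0228 with the replicate block). In the annotation used here 90.9% of its exonic bases are shared with a gene on the same strand that has no row among the counts. MRM3 was at 1702, 1445, 1431 and 1641 in Control and 2268, 2228, 1847 and 2934 in DZNep, higher in every library (0.55 ± 0.16, adjusted p = 0.0207), a call lost without Control replicate 3 (0.0587). TFB1M, the dimethyladenosine enzyme of the small mitochondrial rRNA, was at 1041, 1144, 1049.9 and 1123 in Control and 897, 729.7, 806 and 873 in DZNep. Each DZNep library was lower than each Control library (-0.43 ± 0.13, adjusted p = 0.0238), and the call was lost without DZNep replicate 1 (0.0544), 2 (0.0729) or 3 (0.0679). TFB2M, its relative that works as a transcription factor for mitochondrial DNA, was at 544 ± 248 in Control and 720.4 ± 66.9 in DZNep (adjusted p = 0.337, 0.0371 with the block).

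NSUN3, which methylates the wobble cytosine of mitochondrial methionine tRNA, had the highest fold change of the mitochondrial group and was not called. It was at 324, 633, 553 and 268 in Control and 646, 967, 677 and 465 in DZNep. Control replicates 2 and 3 were above Control replicates 1 and 4, so the groups overlapped although each DZNep library was above the Control library of its number (0.60 ± 0.30, adjusted p = 0.14, 0.00121 with the replicate block). The mitochondrial RNase P subunit TRMT10C was likewise called with the block (log2 fold change 0.44, adjusted p = 0.0598, 0.00372 with the block), and DESeq2 called it too (adjusted p = 0.0296). NSUN4, METTL15 and METTL17, which serve the small mitochondrial ribosomal subunit, had log2 fold changes of -0.11, -0.02 and 0.12 and were called neither with nor without the block. For TRMT61B 22.8% and for TFB1M 30.7% of the exonic bases lie over exons of a gene on the other strand. That gene was SPDYA for TRMT61B, at 46.6 ± 39.5 in Control and 39.9 ± 14.9 in DZNep, and TIAM2 for TFB1M, with a log2 fold change of -0.36 ± 0.14 (adjusted p = 0.0556, 0.0192 with the block).

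The windows of 250 bases before the RefSeq starts (GRCh38.p14) of TRMT61B (chr2:28870310-28870559, - strand), TRMT61A (chr14:103528946-103529195, + strand) and TFB1M (chr6:155314485-155314734, - strand) are shown to set the 1-methyladenosine enzymes of both compartments side by side and to add the member whose window held an NRF1 motif. Capitals mark the GC-box as above, the ETS motif (CCGGAAG) and, in the TFB1M window, the 10-base palindrome known as the NRF1 motif, each on either strand.
TRMT61B: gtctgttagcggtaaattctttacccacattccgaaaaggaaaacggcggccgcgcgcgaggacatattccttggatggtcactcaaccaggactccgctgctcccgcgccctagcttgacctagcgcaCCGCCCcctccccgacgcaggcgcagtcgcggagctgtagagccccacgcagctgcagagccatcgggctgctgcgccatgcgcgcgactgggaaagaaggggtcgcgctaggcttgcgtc
TRMT61A: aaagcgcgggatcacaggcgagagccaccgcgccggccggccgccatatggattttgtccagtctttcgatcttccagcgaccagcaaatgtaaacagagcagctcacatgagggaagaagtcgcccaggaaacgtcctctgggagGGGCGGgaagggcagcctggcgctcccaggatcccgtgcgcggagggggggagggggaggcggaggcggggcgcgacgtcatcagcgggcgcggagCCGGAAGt
TFB1M: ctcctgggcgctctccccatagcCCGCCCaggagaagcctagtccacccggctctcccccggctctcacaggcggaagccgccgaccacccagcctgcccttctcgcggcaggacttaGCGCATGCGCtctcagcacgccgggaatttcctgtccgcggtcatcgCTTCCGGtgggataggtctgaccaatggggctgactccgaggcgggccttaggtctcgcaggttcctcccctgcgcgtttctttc
Within the TRMT61A window, 127 bases are exon of TRMT61A-DT on the other strand. TRMT61B held 1 GC-box, TRMT61A 1 GC-box and 1 ETS motif, and TFB1M 1 each of the GC-box, ETS and NRF1 motifs. Over the 50 coding members with a window, 15 held an ETS motif (8.52% of all windows), 33 a GC-box (42.6%) and 1 an NRF1 motif (1.03%). An ETS motif was in 4 of the 16 lower members with a window (TRMT13, METTL25B, TFB1M and NSUN6) and in 2 of the 5 higher ones (TRMT11 and TRMT61A). The median GC content was 61.2% in the members' windows and 58% in all.

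In the group of 7 cytosolic rRNA enzymes, 2 were lower and none was higher (28.6% lower, against 21.8% of all genes), with a median log2 fold change of -0.35. DIMT1, the dimethyladenosine enzyme of 18S rRNA, was at 3639.7, 3342, 3480.1 and 3476 in Control and 2620.1, 2402, 2207 and 2745 in DZNep. The groups were tight and did not overlap (-0.51 ± 0.13, adjusted p = 0.00954). METTL5, which with TRMT112 makes N6-methyladenosine in 18S rRNA, was at 4839, 2129, 2603 and 4651 in Control and 2104, 1457, 1517 and 2926 in DZNep. Control replicates 1 and 4 were high and Control replicates 2 and 3 low, DZNep replicate 4 was above both of the latter, and the call was marginal (-0.86 ± 0.31, adjusted p = 0.0499, 4.53e-05 with the replicate block). The same pair of Control libraries had the higher mitochondrial shares, and the part of this in the result was not tested. The call for METTL5 was lost without Control replicate 1 (0.134), Control replicate 4 (0.105), DZNep replicate 1 (0.101), DZNep replicate 2 (0.132) or DZNep replicate 3 (0.134). Exons on the other strand cover 19.97% of METTL5 (SSB, log2 fold change -0.40, adjusted p = 0.318, 0.0268 with the block) and 22.3% of DIMT1 (KIF2A, -0.24, 0.741).

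Fibrillarin (FBL), which methylates rRNA ribose at sites set by box C/D snoRNAs, was at 25020.1, 18083, 17735 and 25928 in Control and 16968, 16496, 13264 and 22536 in DZNep. The groups overlapped, and the log2 fold change was -0.35 ± 0.21 (adjusted p = 0.206), with a call as lower with the block (adjusted p = 0.0173). EMG1, the N1-methylpseudouridine enzyme of 18S rRNA, was lower with the block as well (log2 fold change -0.42, adjusted p = 0.11, 0.0109 with the block). Exons of LPCAT3 on the other strand cover 55.5% of EMG1, and LPCAT3 had a log2 fold change of 0.81 (adjusted p = 0.138, 0.00033 with the block, where it was called higher). BUD23, the 7-methylguanosine enzyme of 18S rRNA, was at 4691 ± 1062 in Control and 4739.8 ± 1139 in DZNep, and its log2 fold change of -0.01 ± 0.21 changed sign with the scaling. NSUN5, the 5-methylcytosine enzyme of 28S rRNA, had the highest fold change of the group at 0.24 ± 0.14 (adjusted p = 0.2), and 21.2% of its 100-base runs occur in other transcripts, its pseudogene NSUN5P2 among them.

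The 5 enzymes of RNA caps and of U2 snRNA included 1 lower member and no higher one, with a median log2 fold change of 0.15. This is 20% lower and 0% higher, against 21.8% and 19.1% of all genes. METTL4, which methylates an adenosine of U2 snRNA, was at 459, 497, 673 and 301 in Control and 211, 216, 197 and 175 in DZNep. The Control libraries differed by 2.24-fold and still lay above all DZNep libraries (-1.30 ± 0.23, adjusted p = 0.00149). CMTR2, the ribose methyltransferase of the second transcribed nucleotide, was at 216, 385, 370.0 and 131 in Control and 454, 679, 529 and 235 in DZNep. It was higher within each replicate number but overlapped between groups (0.76 ± 0.38, adjusted p = 0.139, 0.000313 with the block). The cap guanosine enzyme RNMT also was called higher with the block (log2 fold change 0.39, adjusted p = 0.255, 0.00702 with the block). CMTR1, which acts on the first transcribed nucleotide, and TGS1, which makes the trimethylguanosine cap of snRNAs, had log2 fold changes of 0.15 and 0.13 and were called neither with nor without the block.

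METTL23 had the lowest log2 fold change of all 64 members. It is known as a protein arginine methyltransferase, and it belongs to the 8 members that methylate proteins or thiols, of which 2 were lower and 1 higher (median log2 fold change 0.29). METTL23 (GRCh38 chr17:76726830-76733936, + strand) was at 988, 1099.9, 1117 and 809 in Control and 155, 120.0, 171 and 168 in DZNep. The lowest Control library was more than 4 times the highest DZNep library, and METTL23 fell by 2.74 on the log2 scale (SE 0.18, adjusted p = 7.47e-06), a 6.54-fold lower mean. As a limit, 12.4% of the exonic bases of METTL23 are shared with an unnamed gene on the same strand. That gene was at 0.894 ± 1.26 in Control and 0 in DZNep. METTL22, a protein lysine methyltransferase, was at 677, 569, 743 and 602 in Control and 385, 354, 369 and 357 in DZNep, again with no overlap (-0.85 ± 0.14, adjusted p = 0.00102).

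METTL7B, a thiol methyltransferase, was the 1 coding member that passed both thresholds as higher. It was at 327, 350.0, 221 and 480.2 in Control and 765, 598, 640.0 and 1032 in DZNep. Each group spread about its mean, Control replicate 4 and DZNep replicate 4 were the highest of their groups, and the groups did not overlap (1.11 ± 0.25, adjusted p = 0.00598). Its log2 fold change was 0.94 without Control replicate 3 or without DZNep replicate 4 (adjusted p = 0.0139 in both fits), under the threshold of 1. Its relative METTL7A was at 2613 ± 760.5 in Control and 3435 ± 366 in DZNep (adjusted p = 0.187, 0.0199 with the block). METTL13, which methylates the elongation factor eEF1A, was at 1041, 2781, 1765 and 945 in Control and 2910.3, 4385, 3018 and 1803 in DZNep. Control replicate 2 lay within the DZNep range, and METTL13 was called with the block (0.86 ± 0.36, adjusted p = 0.0822, 3.77e-05 with the block). METTL18, a histidine methyltransferase of a ribosomal protein, was called with the block and by DESeq2 (0.59, adjusted p = 0.0628, 0.00137 with the block, 0.0371 in DESeq2).

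Of the 5 members whose substrates are not named here, METTL27 and METTL25B were lower, and none was higher. METTL27 was at 122, 75.9, 74.3 and 102 in Control and 33.6, 15.3, 43.2 and 34.9 in DZNep. The counts were low and the groups did not overlap (-1.58 ± 0.33, adjusted p = 0.00388). METTL25B was at 1818, 1111, 1577 and 1664 in Control and 593, 471, 591 and 712 in DZNep, with Control replicate 2 the lowest of its group and still above every DZNep library (-1.41 ± 0.19, adjusted p = 0.000311). Exons of ISG20L2 on the other strand cover 10.3% of METTL25B, and ISG20L2 was lower (log2 fold change -0.59, adjusted p = 0.0292). METTL25 had the highest fold change of these 5 at 0.20 ± 0.18 (adjusted p = 0.41). METTL26 (log2 fold change -0.49, adjusted p = 0.334) was lower with the block (0.0192), and METTL24, at 19.6 ± 13 in Control and 16.5 ± 8.6 in DZNep, was near the lower end of what was tested.

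Both lncRNA genes start beside a coding gene on the other strand. METTL14-DT was at 9.25, 5.36, 5.37 and 5.37 in Control and 42.6, 43.5, 50.1 and 32.6 in DZNep. Every DZNep library was at least 3 times the highest Control library, with a fitted log2 fold change of 2.73 ± 0.33 (adjusted p = 0.000161) from few reads in Control. The neighbouring METTL14, an mRNA methyltransferase outside the rule, was at 1290.3, 1488, 1476 and 1219 in Control and 2654, 3091, 2806 and 2361 in DZNep (log2 fold change 0.97, adjusted p = 0.000473). No exon of METTL14-DT overlaps an exon of another gene in the annotation used here. TRMT61A-DT, beside TRMT61A, was at 44.7, 97.3, 71.7 and 46.2 in Control and 105, 110.3, 105 and 69.7 in DZNep. Its groups overlapped, with Control replicates 2 and 3 above DZNep replicate 4 (0.55 ± 0.29, adjusted p = 0.162, 0.0401 with the block).

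Per length, the members spanned from 0.495 ± 0.409 TPM in Control for METTL24 to 850.0 ± 101 for FBL. TRMT112, the activator subunit shared by TRMT11, METTL5 and BUD23, came after FBL at 499 ± 131 TPM in Control and 586 ± 100 TPM in DZNep, and BUD23 followed at 327 ± 42.4 and 340.3 ± 25.1. FBL was at 700.4 ± 56.9 TPM in DZNep, above TRMT112, and none of the 3 was called. In Control, the ranges of mean ± SD were apart for FBL and TRMT112 and met for TRMT112 and BUD23, and in DZNep they met for FBL and TRMT112 and were apart for TRMT112 and BUD23. In normalized counts TRMT112 was at 8219.8, 3829, 4156 and 12167 in Control and 7431, 5728, 5446 and 11988 in DZNep. Replicate 4 was the highest library in both groups, and the log2 fold change of 0.08 ± 0.39 (adjusted p = 0.89) changed sign without Control replicate 2 (-0.13), Control replicate 3 (-0.11) or DZNep replicate 4 (-0.21). Exons of ESRRA on the other strand cover 25.8% of TRMT112, and ESRRA was lower (log2 fold change -1.09, adjusted p = 0.000281).

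**Figure D3:**
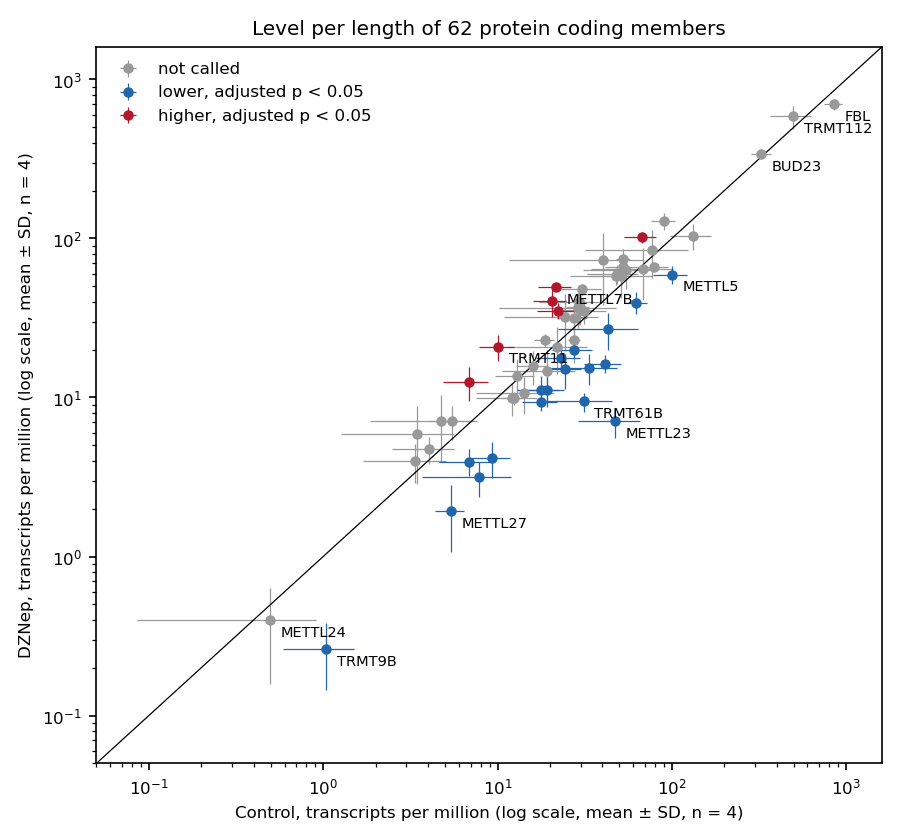
The mean level of the 62 protein coding members in DZNep (y axis) is plotted against that in Control (x axis), both in TPM on log axes, with SD bars (n = 4) and a line of equal level. FBL, TRMT112 and BUD23 lie at the top close to the line, and METTL23, TRMT61B, METTL27 and TRMT9B lie under it.

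The spread between libraries was smaller for the members than for all genes in both groups. The median coefficient of variation was 19.1% in Control and 14.9% in DZNep, against 26.4% and 19.97% over all genes tested. Control replicates 2 and 3 were both above Control replicates 1 and 4 for 24 members and both below them for 26, where 35.2% and 35.6% of all genes did so. The median absolute log2 fold change was 0.43 for the members and 0.54 for all genes. The members and all genes were not matched for expression level, and the part of level in these differences was not tested.

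Other genes of RNA modification were taken as 4 lists, and 9 of their 49 genes were lower and 5 higher (18.4% and 10.2%, against 21.8% and 19.1% of all genes tested). The lists held 11 partner proteins of the members, 12 RNA methyltransferases with other symbols, 13 genes of the wobble uridine pathway and 13 pseudouridine synthases. With the replicate block 13 were lower and 10 higher, which moved the higher count by more than 1.5 times, while the shares of all genes moved to 30.2% lower and 28.8% higher.

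Among the 13 pseudouridine synthases, which turn uridine into its isomer without SAM, 3 were lower and 2 higher. This is 23.1% and 15.4%, near the 21.8% and 19.1% of all genes. PUS7, which acts on tRNA and mRNA, was at 1492, 1464, 1520.1 and 1265 in Control and 248, 260.1, 255 and 317 in DZNep. The groups were far apart and each was tight, and PUS7 fell by 2.44 on the log2 scale (SE 0.15, adjusted p = 4.93e-06). PUS1, which acts on nuclear and mitochondrial tRNAs, fell by 0.75 (adjusted p = 0.00887). TRUB2, a mitochondrial pseudouridine synthase, was at 1645, 1954, 1615 and 2489 in Control and 5369, 5055, 4234 and 5923 in DZNep, higher in every library (1.39 ± 0.18, adjusted p = 0.000257), and RPUSD4, another mitochondrial one, rose by 0.47 (adjusted p = 0.0231). The RPUSD4 call was lost without Control replicate 1 (0.0743), DZNep replicate 1 (0.0606) or DZNep replicate 2 (0.0681), and with all genes with at least 1 read (0.0774).

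Of the 12 other RNA methyltransferases, 2 were lower and 1 higher (16.7% and 8.33%, against 21.8% and 19.1% of all genes). TARBP1, a tRNA ribose methyltransferase, was at 1219, 2138, 1508 and 1263 in Control and 555, 579.9, 561 and 529.9 in DZNep, with the DZNep libraries close together and under all Control libraries (-1.49 ± 0.19, adjusted p = 0.000223). BCDIN3D, which methylates the 5′ phosphate of histidine tRNA, fell by 0.92 (adjusted p = 0.00105), and MEPCE, the capping enzyme of 7SK RNA, rose by 0.54 (adjusted p = 0.0135). In the wobble uridine pathway 3 of 13 genes were lower and 1 higher (23.1% and 7.69%, against 21.8% and 19.1% of all genes). The Elongator subunits ELP6 and ELP2 fell by 0.81 and 0.60 (adjusted p = 0.00586 and 0.0105, the ELP2 call being lost on library sizes alone with 0.0589), while the tRNA thiolation protein CTU2 rose by 0.69 (adjusted p = 0.0214), a call lost without Control replicate 3 (0.0574) or DZNep replicate 4 (0.0503).

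The 11 partner proteins had 1 gene lower and 1 higher (9.09% each way, against 21.8% and 19.1% of all genes). RAMAC, the activator of RNMT, was at 1196, 1027, 1141 and 1094 in Control and 1788, 1658, 1486 and 2027 in DZNep, with no overlap (0.61 ± 0.14, adjusted p = 0.00572). NOP58, a core protein of the box C/D particle that holds FBL, was at 15302, 5818, 8042 and 12556 in Control and 5541, 5267, 4479 and 8224 in DZNep. Control replicates 1 and 4 were high, DZNep replicate 4 was above Control replicates 2 and 3, and the call was marginal (-0.86 ± 0.30, adjusted p = 0.0451, 0.000758 with the block). It was lost without Control replicate 1 (0.132) or 4 (0.0849), or without DZNep replicate 1 (0.113), 2 (0.11) or 3 (0.124), and with size factors by median ratio (0.0517) or at least 10 reads in every library (0.0585).

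**Figure D4:**
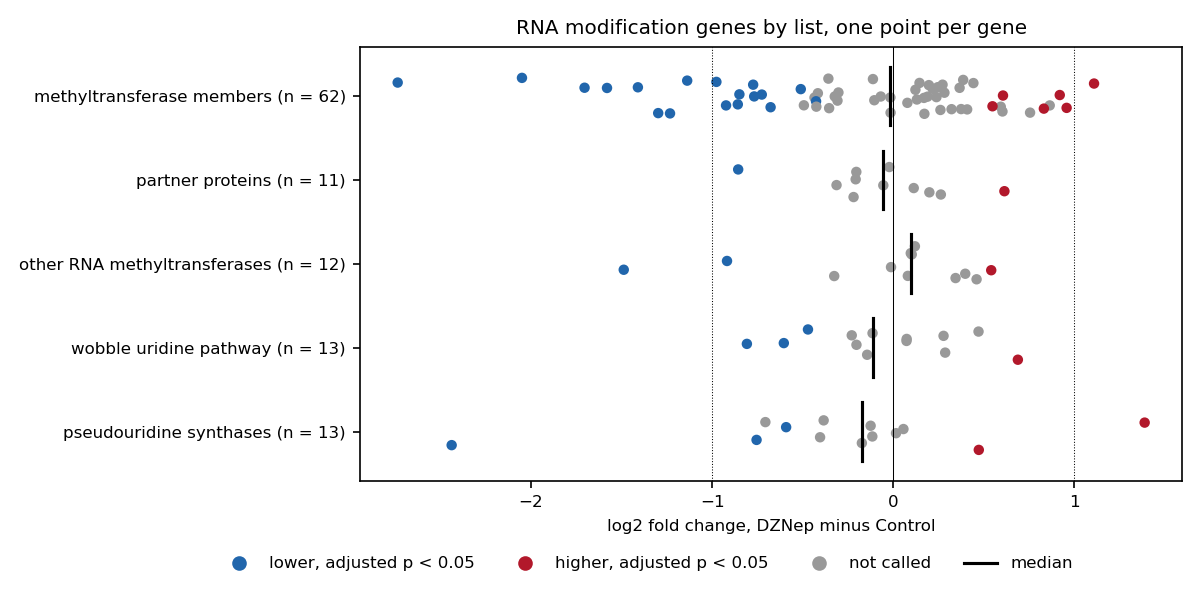
Each point is the log2 fold change (DZNep minus Control, x axis) of 1 gene, for the 62 protein coding members and the 4 lists of other RNA modification genes, with black bars for the medians and a random vertical offset. PUS7 at -2.44 and TRUB2 at 1.39 are the outermost genes of the 4 lists.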

How the data were processed

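RNAseq was measured in 8 libraries, grouped by the treatment in the labels. Per the labels and methods, reads of 150 bp from both ends were trimmed (Trimmomatic 0.36) and aligned to GRCh38 (STAR 2.5.2b), and uniquely placed reads on exons were assigned to genes by featureCounts (Subread 1.5.2). The authors deposited these counts for 57500 genes, and a signal of normalized counts for 19118 genes with more than 80 summed counts, computed by the authors with DESeq2 size factors. The annotation release, library type and strand setting are not given in the sources used here, so overlapping and antisense genes are uncertain.

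Symbols and coordinates came from GENCODE's annotation of GRCh38, and 56410 identifiers had a symbol. The counts were tested with edgeR 4.0.16 (R 4.3.3), using TMM scaling, filterByExpr, the quasi-likelihood test and Benjamini-Hochberg adjustment over 19171 genes, with all 64 members among them. The thresholds were an adjusted p of 0.05 and, where both are named, an absolute log2 fold change of 1. Each SE is the absolute log2 fold change divided by the square root of the F statistic of the quasi-likelihood test. The study's own test was DESeq2, which was run here (1.42.0) as an alternative. TPM values were computed from the counts and the exonic length of each gene. Promoter windows and motifs were read from RefSeq, which matched 51 members. The code was tested on simulated data, where 85 of 100 changes of 4-fold and 36 of 100 changes of 2-fold were called. Of 18622 unchanged genes, 7 were called. A gene that was not called is therefore not shown to be unchanged. The simulation changed a far smaller share of genes than was called in these data, and it drew each library independently. Its rates need not hold for the comparison made here.

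Libraries of 1 group differed by a chi-square of at least 28 per degree of freedom, more than the sampling of reads gives. Each library was counted as 1 replicate, though this value cannot show that the libraries came from separate cultures. The methods call the 4 samples of a group biological replicates, while the labels do not name separate cultures, so p-values measure the spread between these samples. Deviations from the group means correlated at 0.136, 0.492, 0.429 and 0.673 between Control and DZNep libraries of the same number and at -0.681 to 0.529 between those of different numbers. All 4 same-number values were over 0.1, so the numbers were taken as pairs in the replicate block, although Control replicate 1 correlated more with DZNep replicate 4 (0.529) than with DZNep replicate 1. The main fit did not use the pairs. Depth limits low genes, and counting error is only part of the spread.

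The rule for named genes took every member past both thresholds, the highest and lowest fold change of each substrate group, the 3 highest mean normalized counts, METTL2A and METTL2B, and the 2 highest and 2 lowest called genes of each of the 4 lists. Others were named after their values were seen. The members, the lists and the tests were chosen with earlier results of these data known. Alternatives were other scalings, filters and tests, the replicate block and leaving out each library. No set test was run.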

Additional observations from a re-analysis of the deposited data

Results flagged for a closer look

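Among the 90 groups of 4 libraries of the 45 genes named by the rule or called, 1 had a library that stood apart by Dixon's test at the 95% level, where chance alone is set to mark about 5% of groups. METTL14-DT was at 9.25 normalized counts in Control replicate 1, against 5.36, 5.37 and 5.37 in the other Control libraries, a gap of 0.995 of the whole range. These values rest on few reads each, and leaving out that library kept METTL14-DT among the higher calls.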

How the results depend on the processing

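Of the 24 coding members called, 18 were called under each alternative run (other scalings, DESeq2, other filters, the replicate block and leaving out each library), and none of the 24 changed direction. The exceptions were METTL5 (8 alternatives, adjusted p up to 0.134), TFB1M (5, up to 0.136), TRMT1 (3, up to 0.0586), TRMT1L (2, up to 0.0607), DIMT1 (0.0635 with all genes with at least 1 read) and MRM3 (0.0587 without Control replicate 3). METTL5 was also lost with median-ratio size factors (0.0566), with the genes of the deposited normalized table (0.0517) and with at least 10 reads in every library (0.0642). DESeq2 added TRMT10C, METTL18 and TRMT2A to the higher members. The replicate block moved the higher members from 6 to 16 and the higher genes of the 4 lists from 5 to 10. Among genes the text names, its changes of call are given beside each value, and it changed no other call. Members higher past both thresholds numbered 2 with library sizes alone and 0 to 2 when each library was left out. BUD23, not called, reversed to 0.011 with size factors by median ratio, 0.071 on library sizes alone, 0.019 in DESeq2, 0.018 with all genes with at least 1 read and 0.015 with at least 10 reads in every library, and ranged from -0.17 to 0.15 when each library was left out. TRMT112, not called, ranged from -0.21 to 0.47 when each library was left out. The cause was not tested.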
